A study of Mus musculus with 22 samples.

Results

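Genes that mark the output neurons of the olfactory bulb were followed through total RNA of the right brain hemispheres of 22 mice. The members were the rows of the count tables for Doc2g, Cdhr1, Eomes, Tbx21 and Nmb, chosen by name, which made 5 of 24421 genes. All mice were of 1 inbred black laboratory strain, C57BL/6JOlaHsd, for which the labels name no transgene or agent, and were housed in groups and ranked by the tube test at 10 to 12 weeks of age. In this test the mouse that pushes its opponent out of a narrow tube wins. The groups were 7 dominant males, 7 submissive males, 4 dominant females and 4 submissive females, and each cage gave 1 dominant and 1 submissive mouse that were sacrificed together. Each library came from 1 hemisphere of 1 animal. The females of replicates 3 and 4 carry group names in place of cage numbers in their library names, and they are counted here as cages 3 and 4. By the study's methods, females of intermediate rank were regrouped and ranked anew, and the sources used here do not say whether these names mark such groups, so regrouping and cage cannot be told apart there.

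The olfactory bulb is the first relay of smell in the brain and lies at the front tip of each hemisphere, from which it can be torn or left behind when a brain is taken out. Sensory axons from the nose end there on mitral and tufted cells, the glutamatergic neurons that carry the signal on to the olfactory cortex. In these cells Eomes (also called Tbr2) and Tbx21 (also called T-bet) encode T-box transcription factors, Doc2g encodes a protein of the double C2 family, Cdhr1 a cadherin-related membrane protein that is also found in photoreceptors, and Nmb the neuropeptide neuromedin B. Eomes is also known from unipolar brush cells of the cerebellum and Tbx21 from T and natural killer cells, and Nmb is found in several other brain regions.

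The libraries held between 12403943 and 16488762 counted reads. Ddx3y, a gene of the Y chromosome, was at 146 to 177 CPM (the usual depth-scaled unit of a count, here with TMM factors) in the 14 males and at 0 in the 8 females, as labelled. Over the 500 most variable genes of the males, dominant male 1 stood apart on the first component, at 25.1 against -4.72 to 4.36 in the other 13 males, and Pcp2, a gene of cerebellar Purkinje cells, had 0 counts in it. On the second component the 8 males of cages 1 to 4 lay at 1.81 to 5.54 and the 6 males of cages 5 to 7 at -9.11 to -3.97, without overlap. Correlations are therefore also given within these cages, a split chosen after the data were seen. The library names of all males carry another prefix than those of all females, and sex cannot be told apart from what this prefix marks, so levels of the sexes are only set side by side.

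The 250 bases before the start of Doc2g, Cdhr1 and Eomes are shown because the correlations between members turn on these genes. All 5 members matched an entry in RefSeq (GRCm38.p6), and each run reads 5′ to 3′ on the strand of its gene, with the 6-base core of the T-box motif (AGGTGT or its reverse complement ACACCT) in capitals. The Doc2g window lay at chr19:4003135-4003384 on the plus strand, that of Cdhr1 at chr14:37098348-37098597 on the minus strand and that of Eomes at chr9:118477939-118478188 on the plus strand.
Doc2g: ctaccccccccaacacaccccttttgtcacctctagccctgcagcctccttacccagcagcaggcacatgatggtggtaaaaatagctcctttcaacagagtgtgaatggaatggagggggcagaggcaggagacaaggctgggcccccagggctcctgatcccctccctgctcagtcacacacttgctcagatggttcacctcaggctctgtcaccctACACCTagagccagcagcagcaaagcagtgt
Cdhr1: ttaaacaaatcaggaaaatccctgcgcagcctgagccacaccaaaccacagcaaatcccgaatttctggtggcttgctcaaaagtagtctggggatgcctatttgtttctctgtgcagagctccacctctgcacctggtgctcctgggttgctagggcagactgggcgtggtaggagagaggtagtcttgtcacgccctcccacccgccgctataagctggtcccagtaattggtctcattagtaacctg
Eomes: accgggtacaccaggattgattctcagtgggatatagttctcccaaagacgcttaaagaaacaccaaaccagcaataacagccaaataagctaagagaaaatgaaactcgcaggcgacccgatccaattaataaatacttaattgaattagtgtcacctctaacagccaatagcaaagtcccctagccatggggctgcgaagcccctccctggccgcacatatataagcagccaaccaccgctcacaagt
The core stood once in the Doc2g window, 25 bases from its end at the gene start, and in none of the other 4 members' windows, whereas 11.8% of 32851 mouse promoter windows of the same length hold it. The longer motif AGGTGTGA was found in none of the 5 windows and in 1.12% of all windows. The E-box CANNTG occurred 3 times before Doc2g, once before Cdhr1 and Tbx21, and not before Eomes and Nmb, and 66.2% of all windows hold it. These matches describe letters only. In the mm10 annotation the genes lie at chr19:4003385-4007005 (Doc2g, plus strand), chr14:37077849-37098311 (Cdhr1, minus strand), chr9:118478189-118486132 (Eomes, plus strand), chr11:97098007-97115331 (Tbx21, minus strand) and chr7:80902227-80905062 (Nmb, minus strand). The Cdhr1 window ends at the start given by RefSeq, with 36 bases between it and the gene as placed by the mm10 annotation, and the other 4 windows adjoin their genes. None of the genes shares exon bases with another gene.

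All members except Tbx21 were detected in every library, at low levels. To compare genes, levels were divided by exon length. Nmb had the highest level per length, at 3.07 ± 0.460 CPM per kilobase of exon in males (SD, n = 14) and 3.02 ± 0.489 in females (SD, n = 8). Doc2g followed with 2.38 ± 0.812 in males and 1.68 ± 0.726 in females, and Cdhr1 with 1.56 ± 0.539 and 1.30 ± 0.370. Eomes was at 0.703 ± 0.378 in males and 0.677 ± 0.231 in females. In both sexes each of these 4 genes overlapped in range with its neighbour in this order. Tbx21 was the lowest, at 0.0347 ± 0.0314 CPM per kilobase in males and 0.0273 ± 0.0321 in females, and its highest library (0.105 in males) lay below the lowest of Eomes (0.134). In such bulk samples fewer bulb neurons and less RNA per neuron cannot be told apart.

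Doc2g, whose relatives of the double C2 family act in vesicle release, was measured at 17 to 87 counts per library. In dominant males its level ran from 2.25 over a median of 3.28 to 5.76 CPM, and in submissive males from 2.53 over 3.06 to 5.83 CPM. Dominant male 7 and submissive male 5 stood above all other males, which did not exceed 3.41 CPM. The 95% exact Poisson intervals of these 2 libraries were 4.62 to 7.11 and 4.67 to 7.20 CPM. The dominant females had 2.02, 1.93, 1.11 and 2.55 CPM and the submissive females 1.45, 2.88, 2.43 and 4.41 CPM, in the order of their cages. The ranges of the ranks overlapped in both sexes.

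Cdhr1 showed the same 2 males on top. Dominant males ran from 3.54 over a median of 6.63 to 10.3 CPM and submissive males from 4.87 over 6.44 to 12.7 CPM. Submissive male 5 had the 12.7 CPM and dominant male 7 the 10.3 CPM, whereas the remaining males stayed at or below 6.99 CPM. Dominant females were at 5.73, 3.86, 5.11 and 6.53 CPM and submissive females at 4.16, 6.19, 4.54 and 8.76 CPM. Submissive female 4 was highest among the females in Cdhr1 as well as in Doc2g.

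Eomes followed another order. Dominant males ran from 0.497 over a median of 2.78 to 4.80 CPM and submissive males from 1.08 over 3.07 to 4.29 CPM, so that the highest male level was 9.66 times the lowest. Dominant male 1 had the lowest level with 7 counts (95% exact Poisson interval 0.200 to 1.02 CPM), although its Doc2g level of 2.27 CPM and Cdhr1 level of 6.75 CPM lay within the range of the other males. Cages 1 to 4 had a median of 3.38 CPM and cages 5 to 7 of 1.82 CPM, with overlapping ranges. Dominant females had 2.71, 1.63, 3.47 and 1.57 CPM and submissive females 2.83, 1.88, 3.88 and 2.14 CPM. The females of cages 1 and 3 were all above those of cages 2 and 4.

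Nmb was the steadiest member. Dominant males ran from 1.57 over a median of 2.04 to 2.65 CPM and submissive males from 1.81 over 2.15 to 2.58 CPM. Dominant females were at 1.64, 2.47, 1.70 and 1.90 CPM and submissive females at 2.33, 2.50, 2.24 and 1.97 CPM. No library stood out, and dominant male 7 and submissive male 5, the 2 top libraries in Doc2g and Cdhr1, had 1.92 and 2.55 CPM.

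Tbx21 was at the edge of detection. Its 27 counts over the 22 libraries left 7 libraries at 0, a count that allows up to 3 counts or 0.179 to 0.243 CPM depending on the library, and none exceeded 4 counts. The 2 libraries with 4 counts were submissive male 5 and submissive female 4, which had 5.83 and 4.41 CPM of Doc2g. Dominant male 7, with 5.76 CPM of Doc2g, had 2 counts, and submissive male 6, with 3 counts, had 3.04 CPM. The 7 libraries at 0 had 1.11 to 3.30 CPM of Doc2g, with a median of 2.25 CPM. Differences in Tbx21 were not detectable at this depth, and it did not pass the filter on low counts in either sex. The 6 lymphocyte genes summed to 6.30 to 9.86 CPM, of which Ptprc, also found in microglia, made up 6.30 to 9.71 CPM. The other 5 did not exceed 0.457 CPM (Cd8a) in any library, Gzmb was at 0 in all dominant males and Cd3e in all submissive females, and their part in the Tbx21 counts was not tested.

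**Figure D1:**
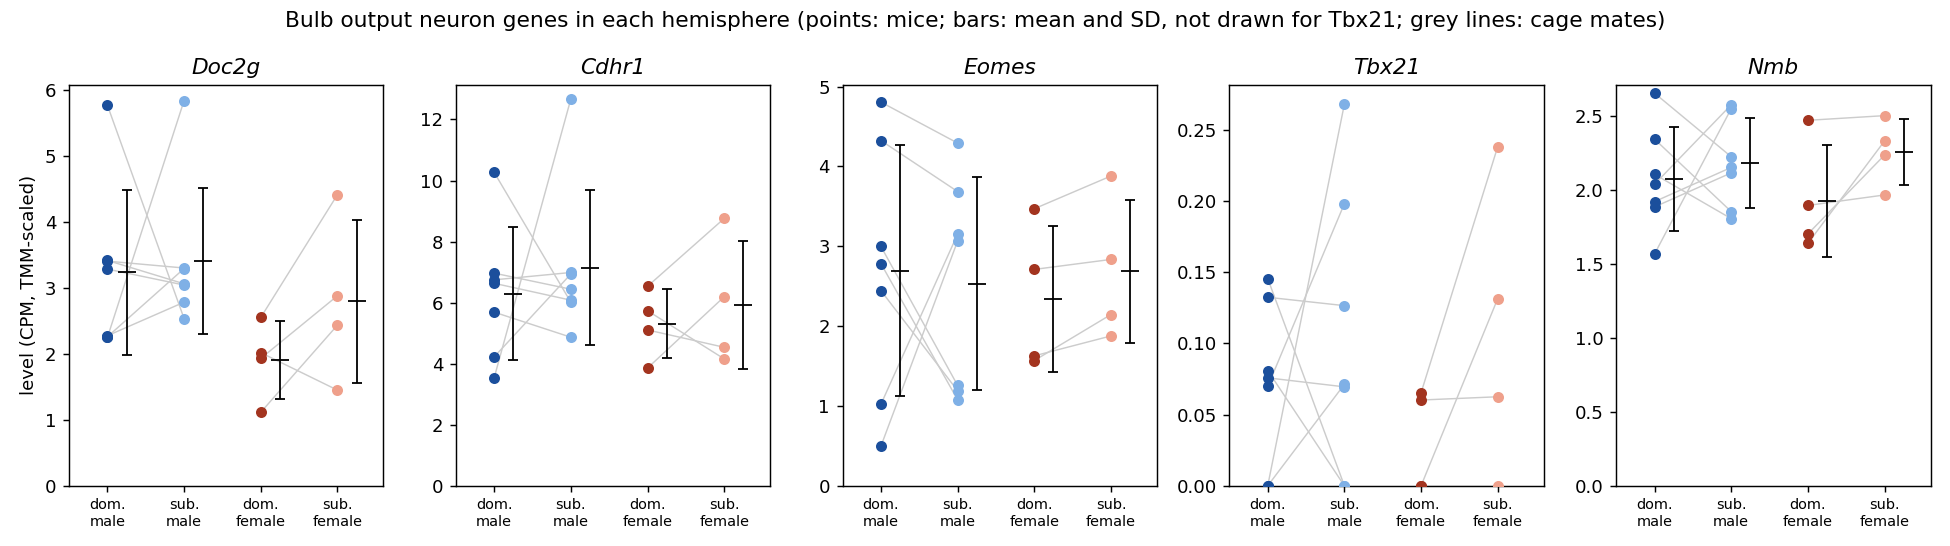
Level of each member (CPM, TMM-scaled, axis from 0) in every hemisphere, by group. Points are mice, grey lines join cage mates, and black bars are the mean and SD of a group, left out for Tbx21, which had 0 to 4 counts. The groups overlap for all members, and 1 dominant and 1 submissive male stand above the other males in Doc2g (5.76 and 5.83 CPM) and Cdhr1 (10.3 and 12.7 CPM).

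The spread between hemispheres was set beside counting noise alone. The dispersion index, the variance of the counts over that of pure counting noise after scaling for depth, was 5.74 in males and 7.09 in females for Doc2g, 11.8 and 7.39 for Cdhr1 and 10.8 and 4.58 for Eomes, where 1 is counting noise. For Nmb it was 0.669 in males and 0.868 in females, and for Tbx21 1.03 and 1.54. The male value of Doc2g rested on dominant male 7 and submissive male 5, without which it was 1.05, and that of Cdhr1 was then 3.14. Without submissive female 4 the female values were 2.96 for Doc2g and 3.28 for Cdhr1. Eomes had 8.98 in males without dominant male 1. On the log2 CPM scale the SD of Doc2g was 0.41 in males, at the 96.4th percentile of the 14737 genes tested there, and 0.57 in females, at the 99.6th percentile of 14865 genes. The SD of Cdhr1 lay at the 97.6th percentile in males and the 96.3rd in females. The SD of Eomes was 0.91 in males (99.9th percentile) and 0.47 in females (98.5th percentile). The median gene had an SD of 0.13 in males and 0.094 in females. Low counts raise this SD for any gene, so the percentile is a description, and Nmb, with fewer counts than Doc2g, lay at 75.9 and 85.1.

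The first comparison asked whether dominant and submissive mice differed in bulb output neuron genes. None of the 4 members that passed the filter was called in males or females (edgeR quasi-likelihood test, Benjamini-Hochberg adjustment over all genes, threshold 0.05). Across all genes, 0 of 14737 were called in males (0%) and 14 of 14865 in females (0.0942%). At an unadjusted p under 0.05 the edgeR test gave 194 genes (1.32%) in males and 1563 (10.5%) in females, among them none of the members in males and Doc2g in females. DESeq2 called 0 genes in males and 77 in females. It gave the members no adjusted p in females, where its unadjusted p-values were 0.0499 for Doc2g and 0.350 to 0.575 for the others.

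In males the log2 fold change of dominant over submissive mice was -0.07 ± 0.22 (SE) for Doc2g, -0.18 ± 0.22 for Cdhr1, 0.08 ± 0.38 for Eomes and -0.08 ± 0.13 for Nmb, each with an adjusted p of 1.00 in edgeR. The median over all genes tested was -0.0015. The dominant mouse had the higher Doc2g level in 4 of 7 cages, the higher Cdhr1 level in 4, the higher Eomes level in 5 and the higher Nmb level in 3. Exact permutation of the ranks gave two-sided p-values of 0.655, 0.457, 0.986 and 0.515 for these genes in the same order. Leaving out submissive male 5 turned the sign of Doc2g to 0.12 and of Cdhr1 to 0.020, still with no call.

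In females all 4 members had lower mean levels in dominant mice. For Doc2g the difference was the largest of the 4, with a mean of 1.90 ± 0.593 CPM in the dominant group and of 2.79 ± 1.23 CPM in the submissive group (SD, n = 4 each), a log2 fold change of -0.57 ± 0.27 (SE). The unadjusted p was 0.0492 and its adjusted p 0.473 (edgeR), and the submissive mouse was higher in 3 of 4 cages. Without submissive female 4 the value of Doc2g was -0.25 ± 0.26 and that of Cdhr1 turned to 0.085, again with no call. Without submissive female 1 Doc2g was at -0.78 ± 0.24 (unadjusted p = 0.0044, adjusted p = 0.271, edgeR). With the replicate number as a block Doc2g was at -0.55 ± 0.21 (unadjusted p = 0.0171, adjusted p = 0.354, edgeR). Cdhr1 had a log2 fold change of -0.18 ± 0.19 (adjusted p = 0.815), Eomes of -0.20 ± 0.25 (adjusted p = 0.843) and Nmb of -0.23 ± 0.18 (adjusted p = 0.714) in edgeR. Eomes and Nmb were higher in the submissive mouse in 4 of 4 cages, which gave an exact paired permutation p of 0.125, the smallest that 4 cages allow. Unpaired exact permutation gave p-values of 0.286 for Doc2g and 0.171 for Nmb, two-sided. The mean log2 CPM of the 4 members, dominant minus submissive, was -0.26 in females and -0.093 in males, given without a test. The male value turned to 0.0065 without submissive male 5 and to 0.013 without dominant male 5.

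The genes of bulb interneurons gave no call by rank either. In females 2 of 10 were above 0 in log2 fold change, with a list median of -0.10 against -0.0020 over all genes. Th, the rate-limiting enzyme of dopamine synthesis that marks periglomerular cells of the bulb as well as midbrain neurons, had a log2 fold change of -0.27 ± 0.090 (adjusted p = 0.276, edgeR). Calb2, which encodes calretinin, had -0.18 ± 0.059 (adjusted p = 0.261). In males 6 of 10 were above 0, with a median of 0.040. Beside these lists, 5 of 5 choroid plexus genes were below 0 in dominant females, where their summed level was 696 to 851 CPM against 665 to 1007 CPM in the submissive group, and 4 of them had an unadjusted p under 0.05 (lowest adjusted p 0.0867 for Kl, edgeR). In dominant males all 5 were above 0, at a summed level of 588 to 1059 CPM against 460 to 845 CPM in the submissive group, and 2 had an unadjusted p under 0.05. None was called in either sex, and their part in the members' values was not tested.

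**Figure D2:**
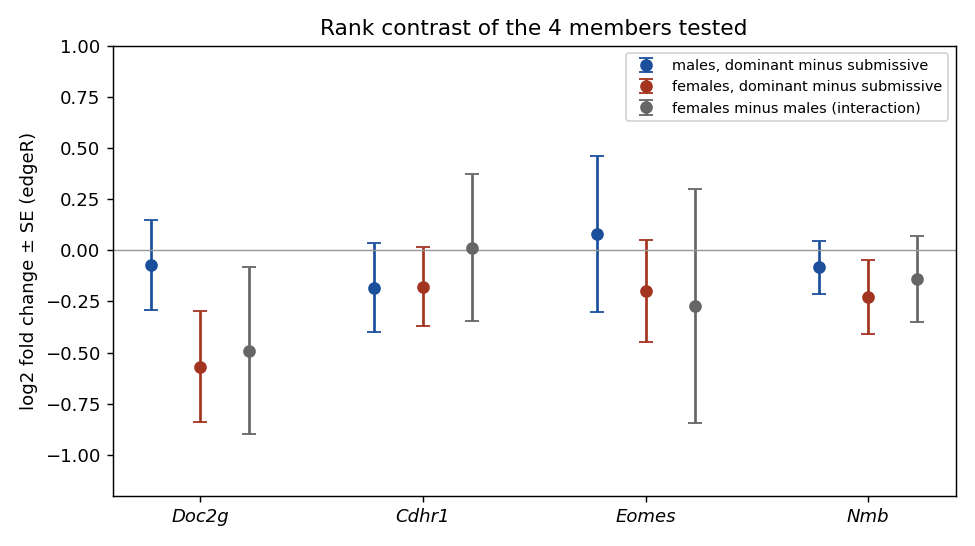
Log2 fold change of dominant over submissive mice in males (blue) and females (red) and the difference between the sexes (grey, females minus males), with the SE of edgeR as bars, for the 4 members tested. The female Doc2g value of -0.57 lies farthest from 0 among the rank contrasts, and no value passed the threshold.

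The rank contrast did not differ detectably between the sexes. The interaction was -0.49 ± 0.41 (SE) on the log2 scale for Doc2g, 0.014 ± 0.36 for Cdhr1, -0.27 ± 0.57 for Eomes and -0.14 ± 0.21 for Nmb, with adjusted p-values of 0.999 to 1.00 (edgeR). Without submissive female 4 the value of Doc2g was -0.17, and without submissive female 3 that of Eomes was -0.048. Over all 15233 genes 0 were called (0%), and 505 (3.32%) had an unadjusted p under 0.05, none of them a member. DESeq2 also called 0 genes for the interaction.

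The second comparison asked whether the members differed between cages, whose mates were sacrificed in 1 session. In males 868 of 14737 genes were called for cage (5.89%), and 0 of 4 members, with adjusted p-values of 0.761 for Doc2g, 0.811 for Cdhr1, 0.377 for Eomes and 0.931 for Nmb (edgeR). The unadjusted p was under 0.05 for 22.3% of all genes and for no member. Eomes, at 0.144 in this test, had an unadjusted p of 0.0170 (adjusted 0.0918) without cage 1, which holds dominant male 1, and of 0.0454 (adjusted 0.263) without the expression filter, in edgeR. A link of the male Doc2g or Cdhr1 level to the cage was not detectable at this size. Between cage mates the Pearson r over 7 cages was -0.55 for Doc2g (exact permutation p = 0.195) and -0.64 for Cdhr1 (exact permutation p = 0.125), and Spearman rho of -0.57 (p = 0.200, exact permutation) and -0.43 (p = 0.354, exact permutation). Without the 2 cages farthest from the median these r turned to 0.27 and 0.31. For Eomes r was -0.083 and for Nmb -0.44 (exact permutation p = 0.832 and 0.340), with rho of 0.43 and -0.29, and without the 2 farthest cages r was 0.97 and -0.49. After adjustment over the 4 genes the lowest permutation p was 0.390. In cage 5 the submissive male had the highest Doc2g level of the males and its dominant mate the lowest, and in cage 7 the dominant male had the second highest and its submissive mate 2.53 CPM.

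In females 11 of 14865 genes were called for cage (0.0740%) and again 0 of 4 members. Without adjustment, 5.11% of all genes and 3 of the 4 members had a p under 0.05, namely Eomes, Doc2g and Cdhr1. Their unadjusted p-values were 0.00049, 0.0068 and 0.0100 and their adjusted ones 0.250, 0.754 and 0.798 in this order (edgeR). Without the expression filter Eomes (adjusted p = 0.0141) and Cdhr1 (adjusted p = 0.0415) were called among 99 of 19834 genes. DESeq2 gave unadjusted p-values of 0.0341 for Eomes, 0.123 for Doc2g and 0.101 for Cdhr1, with adjusted values of 1.00. Doc2g and Cdhr1 rested on cage 4, without which their unadjusted p rose to 0.257 and 0.967 (edgeR). Eomes had an unadjusted p of 0.00095 without that cage, and of 0.0315 (adjusted 0.976) without cage 3, in edgeR. Of the 8 cerebellar genes, 7 had an unadjusted p under 0.05 for cage in the same females, and their summed level was 1263 and 1346 CPM in cage 1, 1311 and 927 CPM in cage 2, 1412 and 1459 CPM in cage 3 and 1039 and 1196 CPM in cage 4, dominant mouse first. Their part in the Eomes values was not tested.

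The third question was whether the members rose and fell together over the hemispheres of each sex, as readouts of 1 tissue would. The pair of Doc2g and Cdhr1 passed the test after adjustment only in males and only by Pearson r. In males their log2 CPM had a Pearson r of 0.84 (permutation p = 0.00051, adjusted over 12 relations 0.0061) and a Spearman rho of 0.61 (permutation p = 0.0230, adjusted 0.221). Cdhr1 was the gene closest to Doc2g among 14736 genes, and Doc2g the closest to Cdhr1. Without the 2 males farthest from the median r was 0.56, and it was 0.36 within cages 1 to 4 (8 males) and 0.95 within cages 5 to 7 (6 males), which hold the 2 top libraries. The size of r in males thus rested in part on these 2 libraries. In females r was 0.72 (exact permutation p = 0.0416, adjusted 0.250) and rho 0.76 (exact permutation p = 0.0368, adjusted 0.221), and r was 0.69 without the 2 farthest animals. There Cdhr1 was in position 334 for Doc2g and Doc2g in position 211 for Cdhr1 among 14864 genes. Cage mates share a session, so these points are not fully independent.

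The other pairs did not pass the test. In males Eomes had an r of 0.39 with Doc2g and of 0.13 with Cdhr1, and in females of -0.43 and -0.28, with adjusted permutation p-values of at least 0.505. Within cages 5 to 7 these male r were 0.91 and 0.86, within cages 1 to 4 they were 0.34 and -0.43, and for the differences between cage mates 0.67 and 0.57. Without the 2 farthest males the r of Eomes with Cdhr1 turned to -0.20, and that of Nmb with Cdhr1 from 0.38 to -0.23. Nmb had an r of 0.28 with Doc2g, 0.38 with Cdhr1 and 0.33 with Eomes in males (adjusted p = 0.505 for each, permutation). In females its r was 0.18, -0.39 and -0.29 with the same genes. Without the 2 farthest females the r of Nmb with these genes was -0.0067, -0.26 and -0.71. That of Eomes was then -0.26 with Doc2g and -0.79 with Cdhr1. The median over the 6 pairs was 0.35 in males and -0.29 in females. For the differences between male cage mates the median over the 6 pairs was 0.62 (7 cages).

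**Figure D3:**
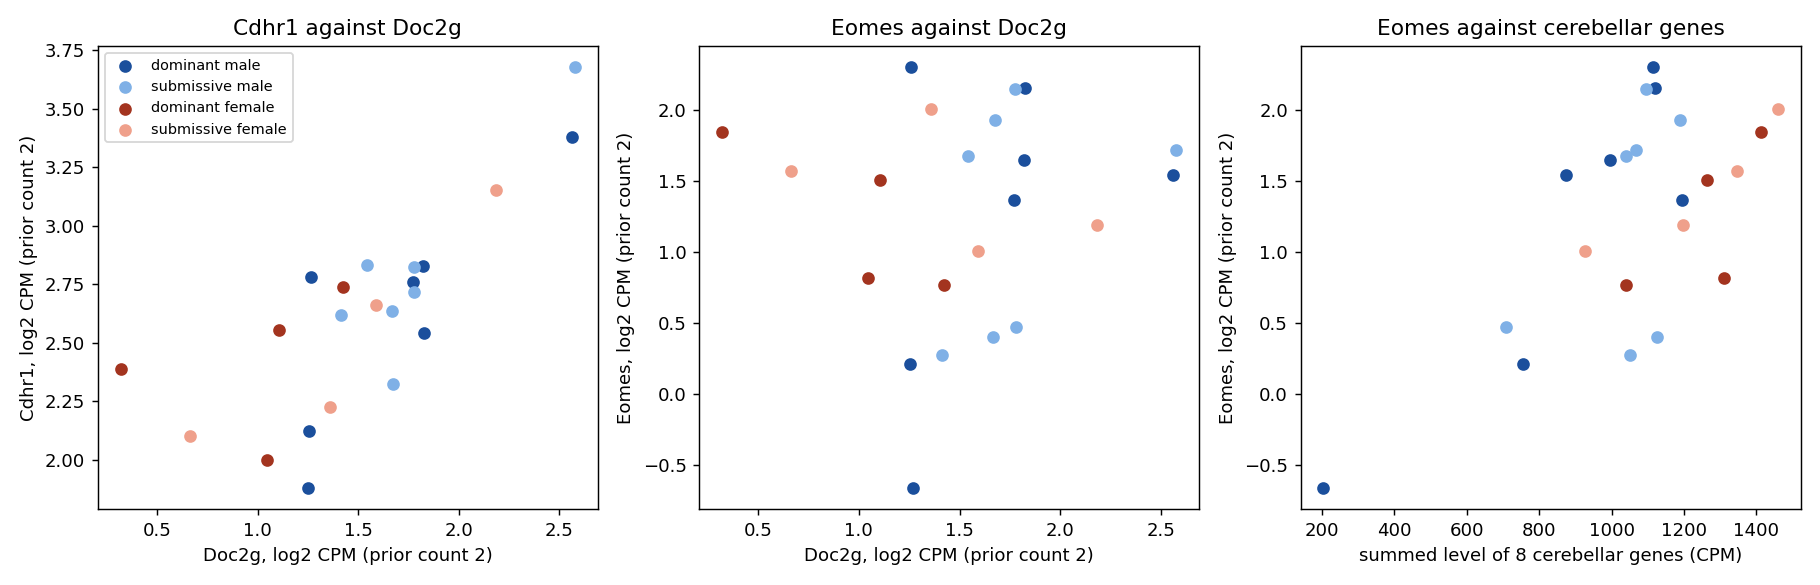
Log2 CPM (prior count 2) of Cdhr1 against Doc2g (left), of Eomes against Doc2g (middle) and of Eomes against the summed CPM of 8 cerebellar genes (right), 1 point per hemisphere, coloured by group. With Doc2g, Cdhr1 had an r of 0.84 in males and 0.72 in females (adjusted permutation p = 0.250 in females) and Eomes of 0.39 and -0.43, neither past the test, and dominant male 1 is lowest in Eomes and in the cerebellar sum (204 CPM).

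Eomes was then set against genes of the cerebellum. The list held Pcp2, Ppp1r17, Car8 and Calb1 of Purkinje cells, Cbln1 and Gabra6 of granule cells, Homer3 and Atp2a3, and all 8 were above 0 in r with Eomes in both sexes. In males r ran from 0.64 (Homer3) to 0.71 (Gabra6), with permutation p-values adjusted over 16 relations of 0.0026 to 0.0242, and rho from 0.32 to 0.90. Gabra6, a GABA-A receptor subunit of cerebellar granule cells, had the rho of 0.90 (permutation p = 3e-05, adjusted 0.00048), and the adjusted permutation p-values of rho of the other 7 genes were 0.0921 to 0.267. In females r ran from 0.59 to 0.76, with adjusted exact permutation p-values of 0.0434 to 0.124, and rho from 0.48 to 0.88 with adjusted exact permutation p-values of 0.0386 to 0.260.

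The male relation depended on the libraries used. Without dominant male 1, whose summed cerebellar level of 204 CPM compared with 709 to 1459 CPM in the other 21 libraries, r ran from 0.31 to 0.79. Without the 2 males farthest from the median it ran from 0.17 to 0.73 in males, and without the 2 farthest females from 0.21 to 0.63. Within cages 1 to 4 it was 0.89 to 0.96, and within cages 5 to 7 it was 0.17 to 0.46. The summed level of the list was 204 to 1194 CPM in dominant and 709 to 1189 CPM in submissive males. In females it was 1039 to 1412 CPM in the dominant group and 927 to 1459 CPM in the submissive group. With the same 8 genes the r of Doc2g was 0.28 to 0.34 and that of Cdhr1 -0.050 to 0.051 in males, and -0.59 to -0.22 and -0.74 to -0.42 in females. These male values also moved with the libraries. For Doc2g they were -0.075 to 0.13 without dominant male 1 and 0.40 to 0.49 without the 2 farthest males. They were 0.47 to 0.57 within cages 1 to 4 and 0.021 to 0.33 within cages 5 to 7. For Cdhr1 they were -0.37 to -0.27 within cages 1 to 4 and 0.19 to 0.57 within cages 5 to 7. Female values without the 2 farthest animals were -0.66 to -0.54 for Doc2g and -0.88 to -0.72 for Cdhr1. Nmb had an r of -0.12 to 0.00086 with the 8 cerebellar genes in males, which became 0.40 to 0.68 without dominant male 1. In females it had -0.25 to 0.038. Among 4 genes linked to unipolar brush cells, which express Eomes, r with Eomes was above 0 for 4 of 4 in both sexes, with medians of 0.53 and 0.57. Without dominant male 1 these r ran from -0.36 to 0.63, within cages 5 to 7 from -0.69 to 0.090, and without the 2 farthest females from -0.38 to 0.44. Whether cerebellar cells gave the Eomes reads was not tested.

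None of the 10 genes closest to Eomes in males was in the cerebellar list. Btg1 (r = 0.93) and Birc2 (r = 0.93) were the closest of 14736 genes, and Reln, which encodes reelin and is made by mitral cells and by cerebellar granule cells, had an r of 0.82 in males and of 0.46 in females. It was 1 of 5 genes shared with cortical glutamatergic neurons, of which 1 was above 0 in r with Eomes in males (median -0.56) and 2 in females (median -0.069). Without the 2 farthest females 4 of the 5 were above 0, with a median of 0.59. Tbr1, a T-box gene of the same subfamily expressed in cortical projection neurons and in mitral and tufted cells, had an r of -0.65 with Eomes in males and of -0.38 in females, where it turned to 0.59 without the 2 farthest animals. Of the 10 bulb interneuron genes, 7 were above 0 in r with Eomes in males, from -0.77 (Meis2) to 0.81 (Pax6) with a median of 0.15, and 3 in females, with a median of -0.15. Within cages 1 to 4 the list ran from -0.94 to 0.98 (median 0.058) and within cages 5 to 7 from -0.30 to 0.86 (median 0.58). The cerebellar list had medians of 0.92 and 0.24 in the same cages. In males Pax6 (0.81), Calb2 (0.81) and Etv1 (0.78), picked from these 10, lay above the highest r of the cerebellar list. Without the 2 farthest males these 3 were at 0.73, 0.65 and 0.75. The cerebellar list had 8 of 8 genes above 0 and medians of 0.66 in males and 0.70 in females. The 5 striatal genes were all below 0 in r with Eomes in both sexes, with medians of -0.62 and -0.23. Without dominant male 1 the male values reached up to 0.17, and without the 2 farthest females all 5 were above 0 (0.090 to 0.48).

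The remaining relations to marker lists are descriptions without a test. Of the bulb interneuron genes, 8 of 10 were above 0 in r with Doc2g in both sexes, with medians of 0.40 in males and 0.34 in females. Without the 2 farthest animals 5 of 10 were above 0 in each sex, with medians of 0.15 and 0.015. Sp8, a transcription factor of these interneurons, had an r of 0.76 with Doc2g in males and of 0.077 in females. Scgn, which encodes the calcium-binding protein secretagogin, had 0.71 and 0.46. In males both stayed above 0.5 without the 2 farthest animals (0.54 and 0.56) and had values of 0.81 and 0.67 within cages 1 to 4 and of 0.80 and 0.89 within cages 5 to 7. Within cages 1 to 4 the list ran from -0.70 to 0.81 with Doc2g (6 of 10 above 0, median 0.26). Within cages 5 to 7 it ran from -0.27 to 0.89 (7 of 10 above 0, median 0.70). In females the highest r of the list with Doc2g was 0.32 without the 2 farthest animals. With Cdhr1, 7 of 10 genes of the list were above 0 in r in males, from -0.52 (Trh) to 0.67 (Scgn) with a median of 0.28. Within cages 1 to 4 it was 4 of 10, with a median of -0.11, and within cages 5 to 7 it was 7 of 10, with a median of 0.57. In females 7 of 10 were above 0, with a median of 0.16, and 5 of 10 without the 2 farthest animals. Pax6, Meis2 and the other genes of this list are expressed in further regions, and its summed level moved little, from 432 to 495 CPM in dominant and from 453 to 489 CPM in submissive males.

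The sensory axons that enter the bulb carry mRNA of Omp, olfactory marker protein, which was at 0.199 to 2.21 CPM in males and at 0.121 to 0.723 CPM in females. Within each sex 2 of the 6 genes of that list passed the filter (3 with Omp over all samples), and their r with Cdhr1 was below 0 for both in males and above 0 for both in females. Of the 8 neuroblast genes, 4 were above 0 in r with Doc2g in each sex, and without the 2 farthest animals 2 in males and 7 in females. The lists of choroid plexus, hippocampus and cortical genes had medians between -0.25 and 0.20 with Doc2g and Cdhr1 in males and between -0.32 and 0.14 in females. Without the 2 farthest animals these ran from -0.46 to 0.28 in males and from -0.79 to 0.30 in females. The 5 striatal genes were all above 0 in r with Cdhr1 in females, with a median of 0.42. Without the 2 farthest females they ran from 0.37 to 0.88. In males 3 of 5 were above 0 with Cdhr1 (median 0.012). With Doc2g 1 of 5 was above 0 in each sex, with medians of -0.12 in males and -0.017 in females.

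Over all 12 lists, 0 genes were called for rank in either sex, for the interaction and for cage in females. For cage in males 3 of the 58 list genes tested were called (5.17%, beside 5.89% of all genes), Dcx of migrating neuroblasts (adjusted p = 0.0120), Slc17a7, the vesicular glutamate transporter of cortical and other excitatory neurons (adjusted p = 0.0103), and Rgs9 of the striatum (adjusted p = 0.0354), all in edgeR. The pituitary genes summed to 22.6 CPM in 1 submissive female and to at most 3.41 CPM in the other groups.

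**Figure D4:**
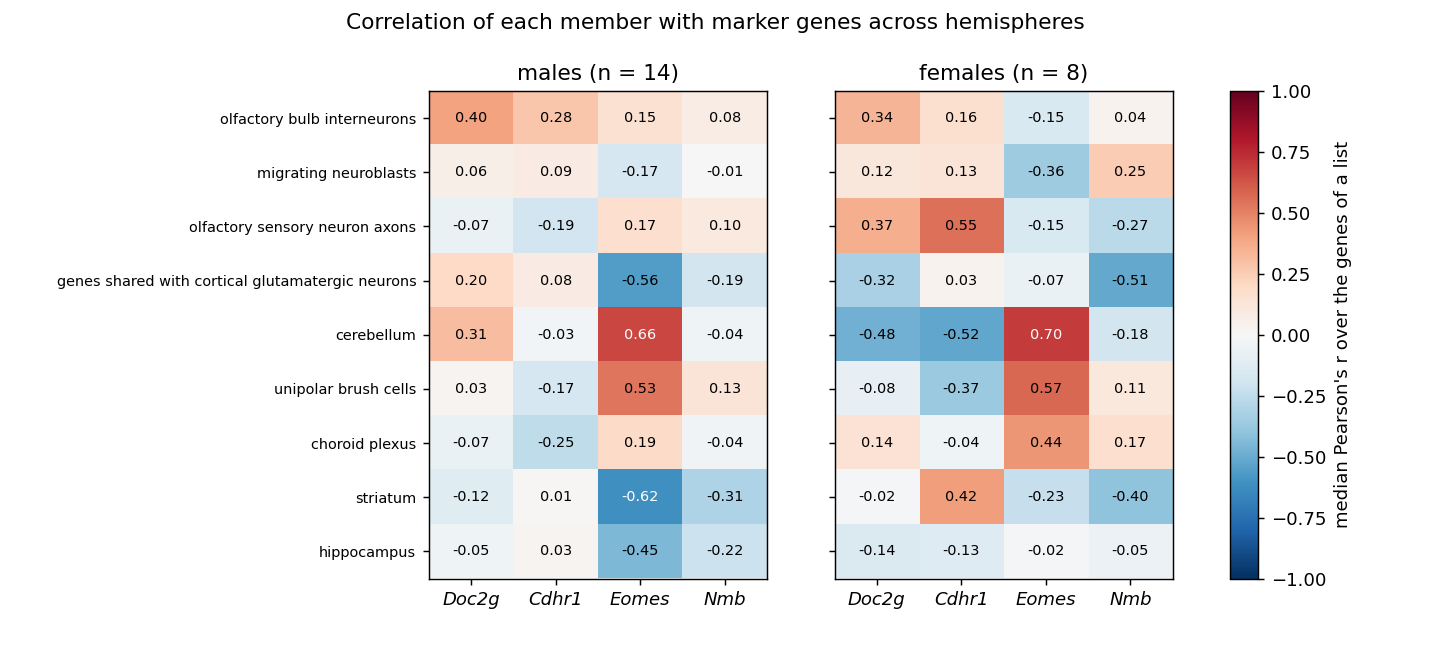
Median Pearson r of each tested member with the genes of 9 marker lists, over 14 males (left) and 8 females (right), on a colour scale from -1 to 1. Eomes has its highest medians with the cerebellum list (0.66 and 0.70), and Doc2g has 0.40 and 0.34 with the bulb interneuron list.

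Shisa3 was the gene most like the mean of the 4 members tested. Over 14665 genes, ranked by the lower of the male and female r with the mean log2 CPM of the 4 members after group means were removed, it came first with 0.75 in males and 0.89 in females. It was followed by Ifi27l2a, Ryk, Asprv1, Diap3, Gm4944, Bach1, Mlph, Phykpl and Cd300a, whose lower r ran from 0.70 down to 0.62. When likeness to Doc2g and Cdhr1 alone was asked for, a choice made after the data were seen, Shisa3 again came first, with a lowest r of 0.76 over both genes and sexes. Its level was low, at a mean of 1.21 CPM in males and 1.12 CPM in females. Among the 10 genes closest to each single member, it appeared for Doc2g and Cdhr1 in males only. It was followed at a distance by Krr1 (0.64), Gm6537 (0.60) and Atoh8 (0.58). With 8 to 14 hemispheres and this many genes, high values of r arise for many genes, so the order is a description.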

How the data were processed

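Total RNA of the right hemisphere was sequenced for 22 mice. Per the labels and the study's methods, the authors made stranded libraries after ribosomal RNA removal, used FastQC 0.11.8 and cutadapt 1.15 on the reads, aligned to mm10 by STAR 2.6.0a, and assigned reads to genes by featureCounts 1.6.2. The deposited values are raw counts, with 1 table per sex, and the authors also deposited a gene length column. The strand setting of the counting is not given in the sources used here. Every column of values belonged to a sample (0 were left out).

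Counts were analysed in edgeR 4.0.16 (R 4.3.3) with TMM factors, its expression filter (minimum count 10, minimum total 15), the quasi-likelihood test and Benjamini-Hochberg adjustment over all genes. CPM were scaled over all 22 libraries, and log2 CPM used a prior count of 2. Rank was fitted within each sex. Cage was tested jointly beside rank. The interaction was fitted over all samples. Single values were tested by exact permutation, and correlations by exact permutation (8 females, 7 cages) or 100000 permutations (14 males), with scipy 1.17.1, two-sided. Intervals are exact Poisson 95% intervals and cover counting error only. Scripts were tested on simulated data. Alternatives were DESeq2 1.42.0, its size factors, no filter, a fit over all samples, the replicate number as a block, a prior count of 0.5, unscaled totals, and each sample or cage left out.

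Same-numbered samples share a cage number, or for females 3 and 4 a group name, in their library names, and the methods state that cage mates were sacrificed together, so the numbers pair the samples. Their deviations from the group means correlated across genes at a mean r of 0.177 in males (lowest -0.035), against -0.029 for other pairs, and of 0.024 against -0.0080 in females. Within groups, 54 pairs of libraries differed by more than sampling noise (chi-square per gene 1.81 to 16.6), so none was counted as a repeat.

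The members and the 12 gene lists were chosen with earlier results of these data known. Named are the members, genes of the lists that were called or are the most abundant of their list, the 10 genes most like the mean of the members, and each member's position among the genes closest to another. Genes outside this rule, such as Sp8, Scgn, Reln, Tbr1, Trh, Omp, Cd3e, Cd8a, Gzmb, Pax6, Etv1, Kl, Btg1, Birc2, Krr1, Gm6537 and Atoh8, were named after their values were seen.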

Additional observations from a re-analysis of the deposited data

Results flagged for a closer look

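Of the 16 combinations of the 4 tested members with the 4 groups, 3 had a library far from the rest by Dixon's test at the 95% level, which flags about 1 in 20 groups by chance. Doc2g was at 5.76 CPM in dominant male 7 against 3.41 CPM in the next dominant male, and at 5.83 CPM in submissive male 5 against 3.30 CPM in the next submissive male. Cdhr1 was at 12.7 CPM in submissive male 5 against 6.99 CPM in the next. The 2 libraries came from cages 7 and 5.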

How the results depend on the processing

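No member was called for rank, the interaction or cage in males under the alternatives that gave an adjusted p. DESeq2 gave none to the 4 members for rank in females, nor to Doc2g, Eomes and Nmb for cage in males. The replicate block called 0 members for rank in either sex and for the interaction, with log2 fold changes of -0.55 for Doc2g in females (adjusted p = 0.354) and -0.075 in males (adjusted p = 1.00). The block moved the calls over all genes in females from 14 to 36 and changed no other call of a member, and DESeq2 called 77 there. Without the expression filter, 2 members were called for cage in females, where 19834 genes were tested. Leaving out 1 sample at a time gave no call of a member. In males the log2 fold change then ran from -0.35 to 0.020 for Cdhr1 and from -0.28 to 0.12 for Doc2g. It ran from -0.12 to 0.27 for Eomes and from -0.15 to -0.024 for Nmb. In females the range was -0.31 to 0.085 for Cdhr1 and -0.78 to -0.25 for Doc2g. It was -0.44 to 0.026 for Eomes and -0.38 to -0.16 for Nmb. The interaction ran from -0.19 to 0.27 for Cdhr1 and from -0.70 to -0.17 for Doc2g. It ran from -0.52 to -0.048 for Eomes and from -0.29 to -0.067 for Nmb, and the cause was not tested. The median of the 6 correlations between members in males was 0.35, and 0.62 for differences between cage mates, 0.19 in cages 1 to 4 and 0.81 in cages 5 to 7, a split added after the data were seen. Without the 2 farthest males the r of Cdhr1 turned from 0.13 to -0.20 with Eomes and from 0.38 to -0.23 with Nmb, and the male mean log2 CPM difference of the members turned from -0.093 to 0.0065 and 0.013 without submissive or dominant male 5. With 7 to 87 counts a library for the members tested, depth limits the size of a difference that can be seen, and Tbx21, with 0 to 4 counts, could not be compared.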
